A study of Mus musculus with 4 samples.

Results

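The genes that copy chromosomal DNA were examined in mouse oocytes exposed to high hydrostatic pressure. They were taken by name from the array files: the origin recognition, MCM, replication factor C, DNA polymerase alpha, delta and epsilon, primase and RPA families, together with Pcna, Cdc6, Cdt1, Gmnn, Fen1 and Lig1. The rule found 39 of the 27670 genes on the array, carried by 63 of 41174 probes and 72 of 43379 spots. Of these 39 genes, 30 passed the detection filter and were tested, among 6921 genes tested in all. Orc1 to Orc6 stood in the files under older names, and no spot matched the rule for Rfc1 or Mcm9.

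Pools of 50 oocytes were kept at 20 MPa and 37 °C for 60 min, and control pools were handled alike except for the pressure. Each of 4 arrays carried 1 treated pool, labelled with Cy5 (red), and 1 control pool, labelled with Cy3 (green). By the labels every array had the dyes in the same orientation, so dye and treatment cannot be told apart. The 4 replicates are biological by the submitters' account, while strain, genotype, age of the donors and oocyte stage are not given in the sources used here. RNA was amplified in 2 rounds from 240 pg per sample, so each value is a relative share of the amplified RNA, and fewer intact oocytes and less RNA per oocyte cannot be told apart. Replicate 1 stood apart: over all tested genes its ratios had Pearson's r of -0.19 with replicate 2, -0.19 with replicate 3 and -0.23 with replicate 4, while the other pairs had r of 0.34, 0.11 and 0.29. The labelled direction of replicate 1 was kept, and whether its dyes ran the other way was not tested. Values with its sign turned, or without it, therefore stand beside several of the results that depend on it.

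Chromosome replication begins when the origin recognition complex, Cdc6 and Cdt1 load the MCM helicase onto DNA, a step called licensing that geminin (Gmnn) blocks until the next cycle. Polymerase alpha with primase lays down primers, the clamp loader RFC places the sliding clamp PCNA at primer ends, and polymerases epsilon and delta extend the leading and the lagging strand. RPA covers exposed single strands, and Fen1 and Lig1 trim and seal the lagging strand fragments. An oocyte replicates its DNA before it enters meiotic arrest and does not replicate between the meiotic divisions, and its stored transcripts and proteins serve the zygote's S phase after fertilization.

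The probes of 3 genes carry most of what is described here, and they are shown because each gene's value rests on a single probe of 60 bases. Pole3, Rfc5 and Gmnn had unadjusted p-values under 0.05. The Pole3 probe lies at chr4:61956359-61956418, the Rfc5 probe at chr5:116608932-116608991 and the Gmnn probe at chr13:24117785-24117844, all on the minus strand of mouse build mm7 as the files give it. Their opening 30 bases are printed, 5′ to 3′. A second Pole3 probe, covering chr4:61957800-61958066, is printed in full because its 60 bases span 267 bases of genome and so cross an exon junction. The Pcna probe, at chr2:131990537-131990674, likewise crosses a junction, spanning 138 bases, and is shown because it was printed 10 times on each array. Exon, intron and UTR annotation of build mm7 was not used here.
Pole3, A_52_P80593, first 30 bases: ggtgagagtgactggagactgttgagaaga
Pole3, A_51_P492087: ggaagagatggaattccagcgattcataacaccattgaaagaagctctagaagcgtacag
Rfc5, A_51_P246339, first 30 bases: ataggaaagaaactacaacagtttgccttc
Gmnn, A_51_P166155, first 30 bases: cctttagtatagctcttggtaaactaacta
Pcna, A_51_P396351: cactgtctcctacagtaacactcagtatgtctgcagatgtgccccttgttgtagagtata

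The comparison asks which transcripts differ between pressure-treated and control oocytes. Every value below is a log2 ratio of the treated over the control pool on an array, or its mean over arrays, and p-values come from limma fitted to all 6921 genes. None of the 30 replication genes passed limma's test at an adjusted p under 0.05. Across all genes 0 of 6921 passed, a share of 0%, and the lowest adjusted p was 0.929, for replication genes as for the whole array. Without adjustment, 3 of 30 replication genes (10%) had a p under 0.05 with a negative ratio, against 3.44% of all genes, and 0 of 30 with a positive ratio, against 0.722%. The same 3 genes, Pole3, Rfc5 and Gmnn, were below 0 on all 4 arrays. That is 3 of the 28 replication genes with 4 values (10.7%), against 9.34% of the 6864 such genes on the array. None of the 28 was above 0 on all 4 arrays, against 2.94% of all genes.

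The mean ratio was below 0 for 19 of 30 replication genes (63.3%) and for 3629 of all 6921 genes (52.4%). The count of replication genes was 26 with median centring in place of loess, and 15 with array weights or without replicate 4. The median of all genes under these settings was -0.34, -0.042 and 0.0017 in turn. The share of all genes below 0 was not counted for them. As reported, the replication genes' median was -0.10, and that of all genes -0.016. By array, the replication genes' median was 0.094 on replicate 1, -0.021 on replicate 2, -0.024 on replicate 3 and -0.28 on replicate 4, a mean of -0.059 ± 0.16 (SD, n = 4). The 4 medians therefore lay on both sides of 0, and the median over genes was 0.020 without replicate 4. Below 0 were 13 of 30 genes on replicate 1, 17 of 30 on replicate 2, 15 of 28 on replicate 3 and 21 of 30 on replicate 4. The counts over all genes were 3451 of 6904, 3851 of 6910, 3693 of 6901 and 3666 of 6908 in turn. A replication gene typically varied more between arrays than it differed from 0: the median SD over arrays was 0.60, against 0.52 over all genes. Only Pole3 reached a 2-fold mean difference, 1 of 30 against 144 of 6921 genes (2.08%). By the scanner software's flag, both channels were well above background on all 4 arrays for 24 of 30 (80%), against 56.5% of all genes. The flag does not mean a bright signal. These genes include Lig1 and Pold4, whose treated pools reached at most 23.6 and 37.3 intensity units after background subtraction.

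**Figure D1:**
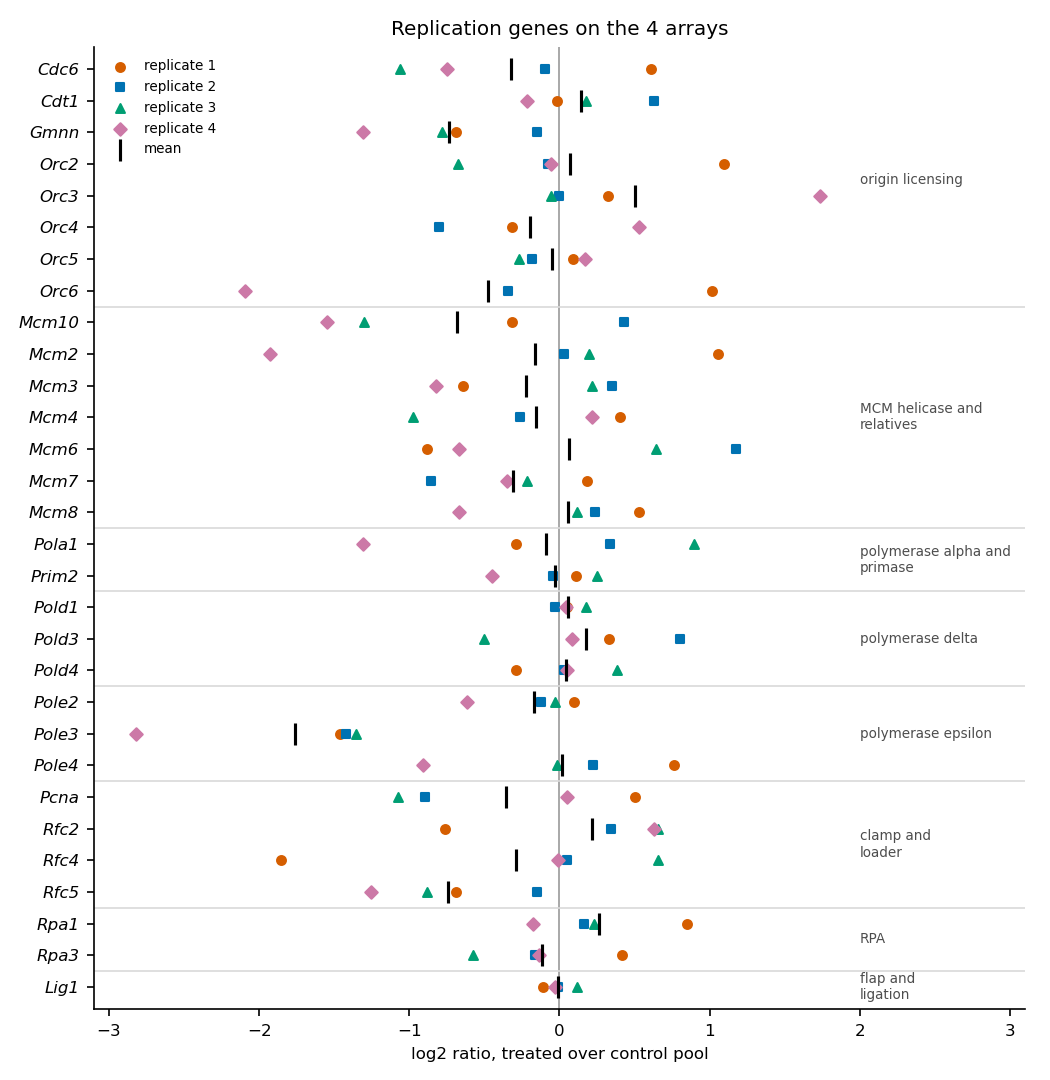
Log2 ratio of treated over control pool (x axis) for each of the 30 tested replication genes (y axis), grouped by role, with 1 symbol per array and a black bar at the mean. Pole3 lies at -1.35 or lower on every array, while most other genes have arrays on both sides of 0.

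Polymerase epsilon, the leading strand enzyme, held the lowest value. Pole3 encodes a small histone-fold subunit of this polymerase, which is also found in a chromatin remodelling complex. Its ratio was -1.46, -1.42, -1.35 and -2.82 on replicates 1 to 4. On the scale of normalised log2 intensity, the treated and control pools read 9.26 and 10.72 on replicate 1, 8.02 and 9.43 on replicate 2, 9.11 and 10.46 on replicate 3, and 7.37 and 10.19 on replicate 4. The treated pool was the dimmer one on every array, and the highest treated value lay below the lowest control value. Both channels were well above background throughout. The mean of -1.76 (SE 0.30, 95% interval -2.52 to -1.0) corresponds to 3.39-fold lower signal in treated oocytes, with an unadjusted p of 0.00157 and an adjusted p of 0.929 in limma. It was the lowest mean among the 6921 genes under this processing. With the scanner software's processed signals it was -2.18 and ranked 289 from the lowest, and with the sign of replicate 1 turned it was -1.03, without an unadjusted p under 0.05.

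The second Pole3 probe, lying toward the gene's 5′ end, was not well above background on any array in either channel and gave no measurement to set beside it. The kept probe was named through a cDNA clone record, whereas the junction probe carries the RefSeq transcript. Pole4, the histone-fold partner of Pole3, had 3 probes that passed the detection filter. The brightest of them gave 0.76, 0.22, -0.016 and -0.91 on replicates 1 to 4, a mean of 0.016 (SE 0.30). Another gave 0.63, -0.22, -1.25 and 0.74, and the third 1.54, -1.25, -0.45 and 0.0048. All 3 were above 0 on replicate 1, and they disagreed in sign on replicates 2 and 4. Pole2, the second subunit, averaged -0.17 (SE 0.19), with signal above background in 1 treated and 3 control pools, and -1.53 with the processed signals. Its net signal in the treated pools, background subtracted, was 1.17 to 35.1 intensity units. That is under the offset of 50 that is added before the ratio is taken, which draws the ratio toward 0. The Pole2 value therefore bounds no difference. Pole, the catalytic subunit, was above background in 0 treated pools and 1 control pool and was not tested.

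**Figure D2:**
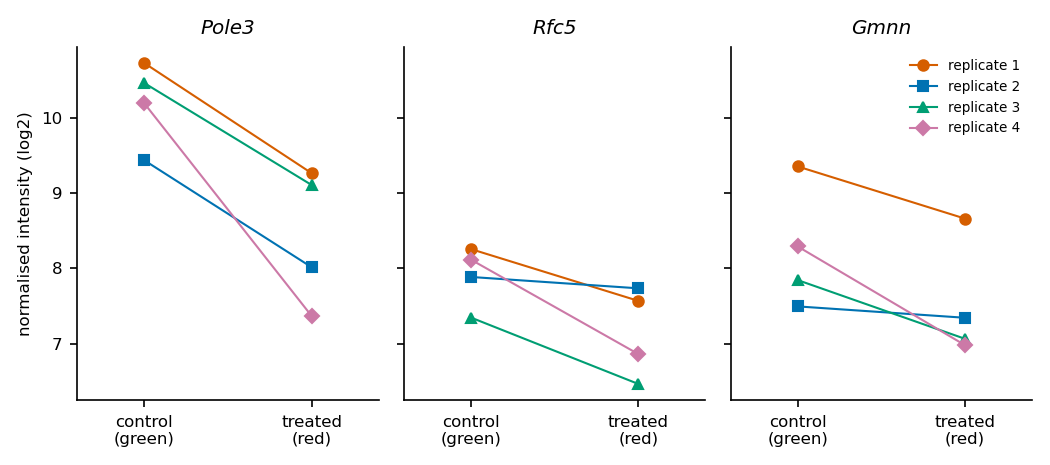
Normalised log2 intensity (y axis) of the control pool (green channel) and the treated pool (red channel) for Pole3, Rfc5 and Gmnn, with a line joining the pools of each of the 4 arrays. All lines slope down, and for Rfc5 and Gmnn the slope on replicate 2 is slight, at -0.15 for both. Treated net signal of both genes lay under the offset of 50 on part of the arrays, which draws a slope toward 0. On replicate 2 both genes also lie near the low end of that array's intensities.

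Among the clamp and its loader, Rfc5 was the gene with an unadjusted p under 0.05. It encodes a small subunit of the RFC complex, which opens the PCNA ring. Its ratio was -0.69, -0.15, -0.88 and -1.25 on replicates 1 to 4. Treated and control intensities (log2) were 7.57 and 8.26, 7.74 and 7.89, 6.47 and 7.35, and 6.86 and 8.12 in the same order. The treated pool was lower on each array, yet the treated and control values overlapped between arrays. Net signal of Rfc5 in the treated pools ran from 8.57 to 209 units. Where it lay under the offset of 50, the ratio was drawn toward 0. On replicate 2 dim spots also read higher in log2 intensity. The treated pool of Pole2 read 7.30 there, at 43.8 units against a background of 41. On replicate 4 it read 5.82, at 41.2 units against a background of 40. The Rfc5 pools, at 7.74 and 7.89, thus lay near the low end on replicate 2, so the -0.15 there does not show a small difference. The Rfc5 mean was -0.74 (SE 0.23, unadjusted p = 0.0203, adjusted p = 0.929, limma). It was -1.48 with the processed signals and -0.40 with the sign of replicate 1 turned, and without replicate 3 or without replicate 4 its unadjusted p was no longer under 0.05.

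The other loader subunits did not share that pattern. Rfc4 read -1.85, 0.048, 0.65 and -0.0079 on replicates 1 to 4. Its mean of -0.29 (SE 0.43) rested on replicate 1 and was 0.23 without it. Rfc2 read -0.76, 0.35, 0.66 and 0.63, a mean of 0.22 (SE 0.29). Its mean was 0.54 without replicate 1 and 0.60 with the sign of replicate 1 turned. Both were thus lowest on replicate 1 and highest on replicate 3. Both were also dim, with treated net signal of 21.3 to 107 units for Rfc4 and 31.2 to 72.8 for Rfc2. Under the offset of 50 their ratios were drawn toward 0, which limits the comparison with Rfc5. Rfc3 was not above background on any array.

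Pcna, the sliding clamp itself, allowed the spread between arrays to be set against the spread between spots. Its 10 spots averaged 0.51, -0.89, -1.08 and 0.051 on replicates 1 to 4. The SD among the 10 spots was 0.038, 0.055, 0.036 and 0.046 in turn, whereas the SD of the 4 array means was 0.76. Repeated spots of an array agreed closely, and the arrays disagreed in sign. The mean was -0.35 (SE 0.32), and it was -0.64 without replicate 1 and -0.61 with the sign of replicate 1 turned. The 60 detected probes that were printed 10 times had a median within-array SD of 0.078 and a median SD over arrays of 0.55, so the clamp gene had tighter spots and a wider spread between arrays than the median of them. Spots are repeat readings of the same RNA and were not counted as replicates.

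**Figure D3:**
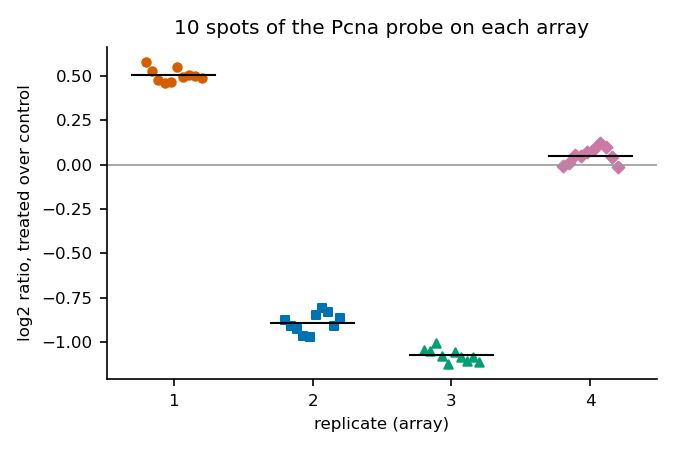
Log2 ratio of treated over control (y axis) at each of the 10 spots of the Pcna probe on each array (x axis), with a black line at the array's mean. Spots lie close together within an array, and the array means run from -1.08 to 0.51.

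Of the 9 origin licensing genes 8 were tested, and Orc1, the largest subunit of the origin recognition complex, was not above background on any array. Geminin, the inhibitor of Cdt1, was the licensing gene with an unadjusted p under 0.05. Gmnn read -0.69, -0.15, -0.78 and -1.31 on replicates 1 to 4. Its log2 intensities in treated and control pools were 8.66 and 9.35, 7.35 and 7.50, 7.07 and 7.85, and 6.98 and 8.29. The treated pool was lower on every array and was above background on 3 of them, and the control pool on 4. On replicate 2 the treated pool read 43.7 units before background subtraction, against a background of 36. Gmnn's net signal in the treated pools ran from 7.69 to 534 units, and under the offset of 50 its ratio was drawn toward 0. Its mean of -0.73 (SE 0.23, 95% interval -1.32 to -0.15) is 1.66-fold lower signal, with an unadjusted p of 0.0228 and an adjusted p of 0.929 in limma. The mean was -2.07 with the processed signals and -0.39 with the sign of replicate 1 turned, and its unadjusted p was not under 0.05 when replicate 1, 3 or 4 was left out.

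Cdt1, the helicase loader that geminin binds, read -0.017, 0.63, 0.18 and -0.21, a mean of 0.14 (SE 0.20). Cdc6, the loading ATPase, averaged -0.32 (SE 0.31), with arrays between -1.06 and 0.61. Its treated pool was above background on 2 arrays and its control pool on 4, and its mean was -2.30 with the processed signals. Without replicate 1, and also with the sign of replicate 1 turned, the Cdc6 mean was -0.63. Geminin and its target Cdt1 thus had means on either side of 0, and the Cdt1 arrays straddled 0.

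The origin recognition subunits went no common way. Orc3 read 0.32, -0.0041, -0.054 and 1.74, a mean of 0.50 (SE 0.35) that was the highest of the 30 genes. Orc4 read -0.32, -0.80 and 0.53 on replicates 1, 2 and 4, and its spot on replicate 3 was left out as an outlier in the file. Orc6 read 1.01, -0.34 and -2.09 on replicates 1, 2 and 4, with the replicate 3 spot left out likewise, a mean of -0.47 (SE 0.63, n = 3). The Orc6 mean was 0.34 without replicate 4, and replicates 1 and 4 lay far apart. It was -1.22 without replicate 1 and -1.15 with the sign of replicate 1 turned. Orc5 had arrays between -0.27 and 0.17 and a mean of -0.047, which was -0.56 with the processed signals. Orc2 had arrays between -0.68 and 1.1 and a mean of 0.073, which was -1.65 with the processed signals. As a group, the 8 licensing genes had medians of 0.21, -0.12, -0.47 and -0.13 on replicates 1 to 4.

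The Orc3 value does not come from a probe to the Orc3 transcript as annotated. Its only detected probe, shown because its strand changes what the value measures, lies at chr4:34706381-34706440 (mm7) on the plus strand, while RefSeq places the gene on the minus strand. The files list it under the gene's older name, through a cDNA record. Of the 5 Orc3 probes, the 3 on the gene's own strand were not kept and averaged between -0.075 and 0.051. Over the replication genes 2 of 54 probes with a known strand (3.70%) lay opposite to their gene, both of them for Orc3, against 333 of 25675 on the array (1.30%).
Orc3, A_52_P150396, first 30 bases: aatgtatacaaagtagtgagaaagctgaaa

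**Figure D4:**
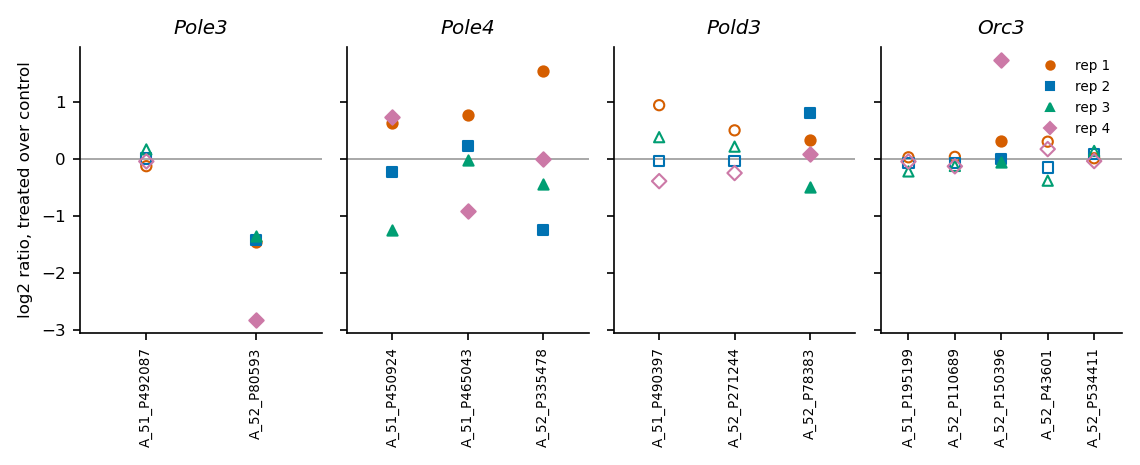
Log2 ratio of treated over control (y axis) for each probe (x axis) of Pole3, Pole4, Pold3 and Orc3 on the 4 arrays, with filled symbols for probes that passed the detection filter and open symbols for those that did not. The undetected second Pole3 probe stays near 0, the 3 Pole4 probes spread widely on both sides of 0, and the single filled Orc3 probe reads 1.74 on replicate 4.

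The MCM genes encode the ring helicase that unwinds DNA, together with relatives of it. Of 8 genes 7 were tested, and Mcm5 was above background in 2 treated and 2 control pools. Their median was 0.18, 0.24 and 0.12 on replicates 1 to 3 and -0.67 on replicate 4, where 6 of 7 lay below 0. Of all genes, 3666 of 6908 lay below 0 on that array. No MCM gene had an unadjusted p under 0.05 with all 4 arrays.

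Of the ring subunits, Mcm2 read 1.05, 0.030, 0.20 and -1.93 on replicates 1 to 4. Its mean of -0.16 (SE 0.49) was 0.43 without replicate 4. Mcm3 read -0.64, 0.35, 0.22 and -0.82, a mean of -0.22 (SE 0.27). For these subunits replicate 4 held the lowest value. Mcm4 read 0.40, -0.26, -0.97 and 0.22, a mean of -0.15 (SE 0.27). Mcm6 read -0.88, 1.17, 0.65 and -0.67, a mean of 0.066 (SE 0.40). Mcm7 read 0.18, -0.85, -0.22 and -0.35, a mean of -0.31 (SE 0.22). Subunits that form 1 ring were therefore not ordered alike: on replicate 2, Mcm6 was the highest of them and Mcm7 the lowest.

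Mcm10, which helps the loaded helicase to start unwinding, read -0.32, 0.43, -1.30 and -1.55, a mean of -0.68 (SE 0.37). It was below 0 on 3 of 4 arrays, and it had an unadjusted p under 0.05 when replicate 2 was left out. Mcm8, a relative of the ring helicase that acts in homologous recombination, read 0.53, 0.24, 0.12 and -0.67, a mean of 0.055 (SE 0.24).

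Polymerase delta, the lagging strand enzyme, had 3 of 4 genes tested, and 2 of these were dim. Net signal in the treated pools, background subtracted, was 11.6 to 22.1 intensity units for Pold1 and 19.6 to 37.3 for Pold4, under the offset of 50 that is added before the ratio is taken. At such signals the offset draws a log2 ratio toward 0, so their values bound no difference. Pold1, its catalytic subunit, lay between -0.031 and 0.18 on the 4 arrays, a mean of 0.060 (SE 0.16), with 3 treated and 3 control pools above background. Its mean was 0.38 with the processed signals, which carry no such offset. Pold4, its smallest subunit, read -0.29, 0.031, 0.38 and 0.047, a mean of 0.043 (SE 0.19). Pold3, an accessory subunit with treated net signal of 64.6 to 1150 units, read 0.33, 0.80, -0.50 and 0.084, a mean of 0.18 (SE 0.25). All 3 means were above 0, and each was smaller than its standard error. Pold2 was not above background on any array.

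Pold3 also had 2 probes over the same stretch, which are shown because they differ by a few bases and bear on how far a reading depends on the exact letters. They lie at chr7:96129681-96129740 and chr7:96129680-96129739 (mm7), on the minus strand. Over 59 shared bases they differ by 4 substitutions, G7A, A8G, A9G and G18C, with positions counted from 1 at the 5′ end of A_51_P490397 and that probe's base given first. The differing bases are in capitals.
Pold3, A_51_P490397, first 30 bases: acccaaGAAgaagtcacGtggaaacggggc
Pold3, A_52_P271244, first 30 bases: cccaaAGGgaagtcacCtggaaacggggca
The former read 0.94, -0.041, 0.38 and -0.39 on replicates 1 to 4, and the latter 0.50, -0.035, 0.22 and -0.25. They had the same sign on every array, and the latter was nearer to 0 on each. Each was above background on 2 treated and 2 control pools, so neither was kept for the test.

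Of polymerase alpha and primase, which make the primers, 2 of 4 genes were tested. Pola1, the polymerase subunit, read -0.29, 0.34, 0.89 and -1.31, a mean of -0.092 (SE 0.38). Prim2, the large primase subunit, read 0.11, -0.041, 0.25 and -0.45, a mean of -0.032 (SE 0.19). Both were lowest on replicate 4 and highest on replicate 3. Pola2 was not above background on any array, and Prim1, the catalytic primase subunit, was above it in 2 treated pools and 1 control pool.

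The single-strand binding complex RPA had 2 of 3 subunits tested. Rpa1, the large DNA-binding subunit, read 0.85, 0.16, 0.23 and -0.18, a mean of 0.26 (SE 0.22). Rpa3, the smallest, read 0.42, -0.16, -0.57 and -0.14, a mean of -0.11 (SE 0.22). Replicate 1 was the highest for both. Lig1, the ligase that seals lagging strand fragments, read -0.11, -0.011, 0.12 and -0.032, a mean of -0.0088 (SE 0.16). Its net signal in the treated pools was 10.7 to 23.6 units, again under the offset of 50, so this value bounds no difference either. Fen1, the flap endonuclease, and Rpa2 were not above background on any array. Without the detection filter, the 9 untested genes had mean ratios between -0.06 and 0.07, which at signals this close to background bounds no difference.

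**Figure D5:**
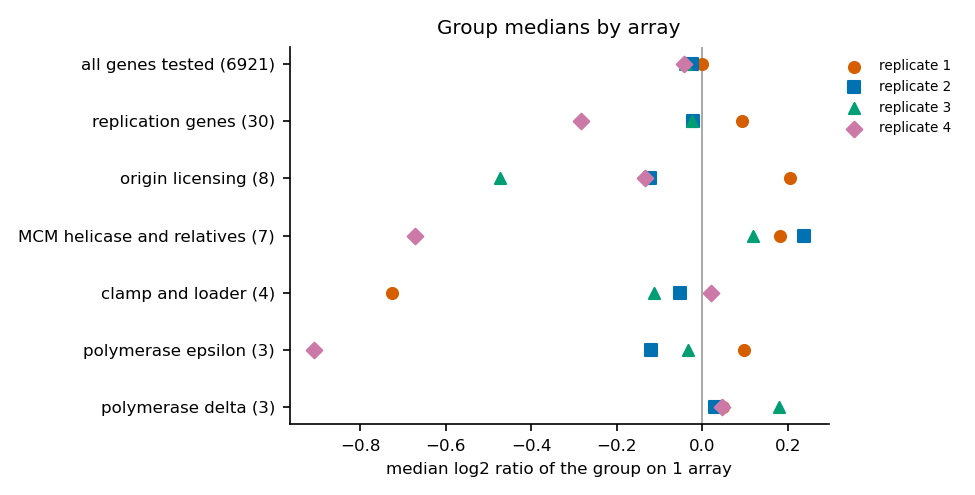
Median log2 ratio of treated over control on each array (x axis) for all genes tested, the 30 replication genes and their roles with at least 3 tested genes (y axis, gene number in brackets). The MCM median is -0.67 on replicate 4 and between 0.12 and 0.24 on the others, and the clamp and loader median is -0.73 on replicate 1.

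Replicate 1 ran against the others for most replication genes, as for most genes. Its sign was opposite to the mean of the other arrays for 19 of 30 replication genes (63.3%) and for 4149 of 6904 genes (60.1%). Over the 28 to 30 replication genes alone, which share the arrays and their normalization, Pearson's r with replicate 1 was 0.009 for replicate 2, -0.14 for replicate 3 and 0.10 for replicate 4. It was 0.52 between replicates 2 and 3, 0.16 between 2 and 4, and 0.28 between 3 and 4. The pools also differed in brightness: before normalization, the 99th percentile of background-subtracted signal in the treated pool was 2.56 times that of the control pool on replicate 1 and 0.393, 0.247 and 0.304 times on replicates 2, 3 and 4. A detected probe was found for 31, 27, 26 and 29 replication genes in the treated pools of replicates 1 to 4 and for 29, 30, 33 and 29 in the control pools. The part of this brightness difference in the ratios was not tested.

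Of all spots other than controls, 7049 to 11155 per array were well above background in the red channel and 8309 to 10837 in the green. The oocyte label was checked against markers. Of 18 oocyte genes 17 were on the array and 13 were tested, with a median ratio of -0.08 and no unadjusted p under 0.05. In all 8 pools 11 of them were above background, among them Gdf9, Bmp15 and Zp3, while Zp2, Figla, Mos and Nlrp5 were above it in too few pools or none. Of 16 cumulus and granulosa genes 7 were tested. Nr5a1 and Tnfaip6 were above background in all pools, Cyp19a1 and Ptgs2 in 3 treated and 4 control pools, and 6 genes, Foxl2, Fshr, Amh, Kitl, Pgr and Lhcgr, in none. Summed signal of the oocyte genes was 0.689% to 1.77% of all signal in treated pools and 1.09% to 1.86% in control pools, and that of the cumulus and granulosa genes 0.00972% to 0.0423% and 0.0167% to 0.0455%. For blood and immune genes, of which Hba-a1 and Srgn were above background in all pools and 2 of 6 were tested, it was 0.0146% to 0.0404% and 0.0239% to 0.0597%. The cumulus and the blood shares were lower in the treated than in the control pool of every array. The oocyte share was lower in the treated pool on replicates 2 (0.689% against 1.16%), 3 (1.77% against 1.86%) and 4 (1.06% against 1.49%). It was higher on replicate 1 (1.58% against 1.09%). Of 9 oviduct, endothelial and stromal genes 3 were tested, and their share was 0.0104% to 0.0186% in treated and 0.00852% to 0.0175% in control pools, with no common order. The part of these shares in the replication gene ratios was not tested.

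Beyond the named machinery, 66 further replication genes were listed, covering helicase cofactors, origin kinases, chromatin assembly, nucleotide supply and the replication checkpoint. Of these 64 were on the array and 41 were tested. None passed limma's adjusted test, and 22 of 41 had a mean below 0, against 52.4% of all genes. An unadjusted p under 0.05 was found for 3 of 41 with a negative ratio, against 3.44% of all genes, and for 0 with a positive one, against 0.722%. Their median was -0.032 over the arrays and 0.40, -0.062, -0.22 and -0.30 on replicates 1 to 4, so replicate 1 stood above the others.

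The smallest p in that list belonged to Top2b, a topoisomerase that relieves DNA tangles, with -0.0019, -0.57, -1.18 and -1.17 and a mean of -0.73 (SE 0.26, unadjusted p = 0.0338, limma). Rrm2b, a ribonucleotide reductase subunit that supplies nucleotides, read -0.23, -0.85, -0.36 and -0.46, a mean of -0.48 (SE 0.18). Asf1b, a histone chaperone, read -0.27, -0.30, -0.52 and -1.14, a mean of -0.56 (SE 0.22). These 3 lay below 0 on all arrays, as 9.34% of all genes with 4 values did. Ccna2, the cyclin of S phase and later stages, averaged -0.44 (SE 0.21), and Gins4, part of the active helicase, 0.60 (SE 0.29). Adjusted over all genes, limma's p was 0.929 for each of the 5.

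Promoters of replication genes are known for sites of the E2F factors, so a shared sequence feature could be looked for independently of the arrays. The words TTTCCCGC, TTTCGCGC, TTTGCCGC and TTTGGCGC were searched on both strands from 250 bases before to 50 bases after each annotated start in RefSeq promoters of assembly GRCm38.p6. At least 1 word was found for 16 of 34 replication genes with a promoter in the table (47.1%), against 704 of 27025 genes (2.60%) and 744 of 32851 promoters (2.26%). Counted by promoter, it was 17 of 43 (39.5%). Among tested replication genes it was 13 of 26 (50%), and the share over all tested genes was not counted. Pole3 and Rfc5 were 2 of the 13 without a word, and Gmnn had no promoter in the table. A match is a description of letters, not of binding, and adjacent words can overlap. Mcm6 is shown as the promoter with the most words before its start, Cdc6 as a licensing gene with 1 word, and Pole3 because of its array value. Each run is the 250 bases before the start, 5′ to 3′ on the gene's strand, with E2F words in capitals, and in Mcm6 the first block of capitals holds 2 overlapping words. They lie at chr1:128359706-128359955 (minus), chr11:98907901-98908150 (plus) and chr4:62525015-62525264 (minus) of GRCm38.p6.
Mcm6: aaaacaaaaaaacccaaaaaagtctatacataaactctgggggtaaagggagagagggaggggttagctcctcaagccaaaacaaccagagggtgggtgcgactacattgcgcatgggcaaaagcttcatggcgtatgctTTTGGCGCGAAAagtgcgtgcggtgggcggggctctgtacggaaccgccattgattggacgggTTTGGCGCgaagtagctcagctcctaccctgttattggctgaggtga
Cdc6: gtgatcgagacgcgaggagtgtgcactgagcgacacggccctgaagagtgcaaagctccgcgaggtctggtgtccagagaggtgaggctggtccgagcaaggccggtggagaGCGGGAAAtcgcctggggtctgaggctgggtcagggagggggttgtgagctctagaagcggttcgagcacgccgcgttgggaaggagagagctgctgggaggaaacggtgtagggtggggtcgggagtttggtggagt
Pole3: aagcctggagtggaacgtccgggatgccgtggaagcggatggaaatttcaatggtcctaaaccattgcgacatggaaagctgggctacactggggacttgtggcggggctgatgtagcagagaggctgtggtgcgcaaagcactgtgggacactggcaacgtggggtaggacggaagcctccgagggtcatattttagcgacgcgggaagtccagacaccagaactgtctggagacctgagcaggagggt
The 13 tested genes with a word had mean ratios from -0.32 (Cdc6) to 0.50 (Orc3), and the 13 without one from -1.76 (Pole3) to 0.26 (Rpa1). These ranges overlap, and a relation between words and ratios was not tested.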

How the data were processed

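Per the labels, total RNA from pools of oocytes was amplified and labelled with Cy5 (treated) or Cy3 (control). The deposited scanner files, for which the submitters' processing notes name Agilent Feature Extraction 9.5.1.1, hold the intensity and local background of each spot and the software's processed signals. They also hold a log10 ratio of red over green, which the authors' value table equals to within 5e-10.

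Normexp (offset 50) was applied to the deposited intensity values, and each array was normalized by loess in limma 3.58.1 under R 4.3.3, with control spots at weight 0. The resulting log2 ratios are not a deposited unit. Outlier spots in the files, 2 of them of replication genes, were dropped, and 0 spots were saturated. The detection filter asked for signal well above background in 1 channel on 3 or more of the 4 arrays, and the brightest probe that passed stood for its gene. The log2 ratio was fitted with lmFit and eBayes against 0, with Benjamini-Hochberg adjustment over all genes.

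Names were updated through RefSeq (GRCm38.p6): 5034 tested genes by accession, 814 by symbol and 379 by synonym, while 694 kept the file's name. Probe positions are those of the files. The genes, lists and alternatives were chosen with earlier results of these data known. Values on all arrays are given for genes detected in every pool, with an unadjusted p under 0.05, or of the same sign throughout, and of the further replication genes the 5 with the smallest p are named. Alternatives covered background, normalization, detection filter, probe choice, eBayes settings, array weights, the value table, leaving out each array and the sign of replicate 1. With 4 arrays the number of arrays limits the precision.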

Additional observations from a re-analysis of the deposited data

Results flagged for a closer look

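In 3 of 38 sets of 4 array values, 1 array stood apart from the other 3 by Dixon's criterion, which chance meets in about 1 in 20 sets. Pole3 read -2.82 on replicate 4 and between -1.46 and -1.35 on the others. The median of the MCM genes was -0.67 on replicate 4 and between 0.12 and 0.24 on the others. The median of the polymerase delta genes was 0.18 on replicate 3 and between 0.031 and 0.049 on the others, a gap that is small in size. With 3 genes, this median is the value of Pold1 on replicates 1 and 3 and of Pold4 on replicates 2 and 4. Treated net signal of both lay under the offset of 50 on all arrays, so neither the gap nor the closeness bounds a difference.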

How the results depend on the processing

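No gene and no replication gene passed the adjusted test under any alternative that was run. The lowest adjusted p over all genes ran from 0.053, with the sign of replicate 1 turned, to 0.999, without replicate 3, and that of the replication genes was 0.157 or higher. The count of replication genes with an unadjusted p under 0.05 was 3 as reported. It was 1 (3.33%) with median centring, against 2.04% of all genes, and 1 with trended and robust eBayes, against 1.03%. When an array was left out it was between 1 and 4. It was 3 without replicate 1, and 4 (13.3%) without replicate 2, against 4.08% of all genes. Without replicate 3 it was 1, against 1.94% of all genes, and without replicate 4 it was 1, against 3.82%. The replication genes' median log2 ratio was -0.58 with median centring, where that of all genes was -0.34. When an array was left out, it ran from -0.12 without replicate 1 to 0.020 without replicate 4. It was -0.19 with the sign of replicate 1 turned, where that of all genes was -0.061. With the processed signals it was -0.17, where that of all genes was -0.12. With the sign of replicate 1 turned, the count was 4 of 30 (13.3%), against 13.4% of all genes, and the genes were Cdc6, Orc6 and Pcna below 0 and Rfc2 above it. Without replicate 1 the count was 3 (10%), against 10.9% of all genes. The genes were then Pole3 and Rfc5 below 0 and Rfc2 above it. The reported 3 were 10%, against 4.16% of all genes. Array weights gave 4 (13.3%), adding Pcna to the reported 3, against 8.71% of all genes. Pole3 ran from -2.37 to -1.03, Rfc5 from -1.48 to -0.40 and Gmnn from -2.07 to -0.39. Of the 30 genes, 10 kept their sign under every alternative and 20 did not. The causes were not tested. Alternatives with probes on the gene's strand only, and with outlier spots kept, were chosen after seeing the data. All arrays shared 1 slide and 1 scan, so neither gives a batch term to fit. Any other difference between arrays, as in collection, amplification or labelling, cannot be told apart from replicate and was not fitted. Each ratio already pairs the 2 pools of its array.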
